A study of Mus musculus with 3 samples.

Results

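The genes described here encode the protein subunits of the cytosolic ribosome, which are often taken as a housekeeping baseline. Members were the autosomal protein-coding genes of the GENCODE M21 annotation (mouse build GRCm38) named Rpl or Rps plus a number, optionally followed by a or l, and the Rps6k kinase genes were left out. The rule found 72 of 20807 autosomal protein-coding genes. Of these, 40 belong to the large subunit (Rpl), 28 to the small subunit (Rps), and 4 are paralogs whose names end in l (Rpl3l, Rpl10l, Rpl39l and Rps27l). The rule uses names only and no measured value.

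The study followed DNA methylation in the mouse embryonic stem cell (ESC) line E14Tg2A with MethylRAD, in 3 samples of 1 library each. Undifferentiated ESCs were kept with leukemia inhibitory factor (LIF). Untreated differentiated cells were collected at day 7 after LIF withdrawal and addition of retinoic acid. The sample labels give no day, and day 7 is taken from the methods of the study. The names of the deposited tables of both differentiated libraries carry a different number, which may or may not be a day, and this was not resolved. Treated differentiated cells went through the same protocol with 3 mM pargyline (PG), an inhibitor of the histone demethylase LSD1. With 1 library for each group there is no replicate error, both day 7 libraries are compared with the same undifferentiated library, and no test between groups was possible.

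In MethylRAD the enzyme FspEI cuts next to a methylated cytosine and releases short fragments, so that reads at a CCGG motif come from methylated copies of it. Ribosomal protein genes are transcribed in nearly every dividing cell, usually from compact promoters rich in CpG, which in mammals are mostly unmethylated. They have also given rise to many processed pseudogenes, copies of the spliced transcript inserted elsewhere in the genome, most of which have no promoter of their own.

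The undifferentiated list held 870345 CCGG sites with 31614085 reads, the untreated list 882955 sites with 36654600 reads, and the treated list 892366 sites with 25767119 reads. A site is listed when it has at least 5 reads, so a motif that is not listed may be unmethylated, covered by fewer reads, or unable to receive a uniquely mapped read. In the bodies and 5 kb flanks of the 72 members, 567 sites were listed in undifferentiated cells, 657 in untreated cells and 686 in treated cells. These sites held 16867, 20886 and 14582 reads, or 0.0534%, 0.0570% and 0.0566% of the CCGG reads of the 3 libraries. The members therefore received a similar small portion of the CCGG reads in each library.

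A promoter was taken as the 1 kb on each side of any annotated start of a gene. In the undifferentiated library, 32 of the 72 members (44.4%, 95% Wilson interval 33.5 to 55.9%) had at least 1 listed promoter CCGG site, against 59.4% of all autosomal protein-coding genes. In the untreated library, 42 members did (58.3%, 46.8 to 69.0%), against 70% of all genes. In the treated library, 50 members did (69.4%, 58 to 78.9%), against 71.8% of all genes. At this width the members thus stood below the background in the undifferentiated and untreated libraries and near it in the treated library, where the share is no result about the members. These intervals cover counting error only, since PCR copies of a fragment are counted as separate reads.

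The place of the members against the background depends on the read cutoff and on the width of a promoter. Where at least 10 reads were asked for, the shares were 30.6% of the members in the undifferentiated and 37.5% in each of the untreated and treated libraries, against 48.4%, 55.1% and 56.0% of all genes, so that the members stood below in the treated library too. After random thinning of all libraries to the smallest CCGG total they were 43.1%, 47.2% and 69.4%, against 56.7%, 64.0% and 71.8%. The width of a promoter was then varied. With 500 bp on each side of a start the shares were 18.1%, 41.7% and 48.6%, against 39.0%, 54.4% and 57.6%, where the treated interval, 37.4 to 59.9%, holds the background. With 3 kb they were 90.3%, 91.7% and 93.1%, against 86.8%, 88.3% and 88.7%, so that the members were no longer below, and the background lay within the interval of the members in each library.

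Among large subunit genes, 19 of 40 had a listed promoter site in undifferentiated cells, 24 in untreated cells and 29 in treated cells. Among small subunit genes the counts were 9, 14 and 17 of 28. All 4 paralogs had a listed promoter site in each of the 3 libraries. Without the paralogs, 28, 38 and 46 of the other 68 members had one, which is 41.2%, 55.9% and 67.6%.

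Related lists were counted in the same way, and their differences from the members were not tested. Of 78 mitochondrial ribosomal protein genes, whose products form the ribosome inside mitochondria, 33, 43 and 46 had a listed promoter site in the undifferentiated, untreated and treated libraries. Of 65 translation factor genes (Eef and Eif), 25, 45 and 44 did. Of 11 cytosolic ribosome genes that the naming rule misses, such as Rplp0 and Rpsa, 4, 7 and 7 did, and of 12 classic housekeeping genes, such as Actb and Gapdh, 5, 5 and 7 did.

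Member promoters were rich in CpG. At the most 5′ annotated start, the ratio of observed to expected CpG had a median of 0.806 over the members and 0.586 over all genes. By this ratio and the GC content, 39 members had a high CpG promoter (ratio above 0.75 and GC above 55%), 29 an intermediate one and 4 a low one (ratio below 0.48). Among the 39, 18 had a listed promoter site in undifferentiated cells, 26 in untreated cells and 27 in treated cells, which is 46.2%, 66.7% and 69.2%. Among all 5592 genes with a high CpG promoter the shares were 51.0%, 73.9% and 75.8%, closer to the members than the shares of all genes in the undifferentiated library and farther from them in the other 2.

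A gene with more motifs has more chances of a listed site, so motifs were also counted. The member promoters held 828 CCGG motifs, with a median of 10.5 per gene against 7 for all genes. In the undifferentiated library 58 of the 828 were listed (7.0%, 5.46 to 8.95%), in the untreated library 104 (12.6%, 10.5 to 15%), and in the treated library 119 (14.4%, 12.1 to 16.9%). Over the promoters of all genes the shares were 16.9%, 22.6% and 26.7%, and over all high CpG promoters 6.88%, 12.4% and 14.7%. Per motif, then, the members stood below all genes and within counting error of high CpG promoters in general. These are all 72 members, of which 39 have a high CpG promoter, so the sets are unlike. Without the paralogs the member shares were 5.53%, 10.2% and 12.4%. The intervals count motifs of the same gene as independent.

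Few motifs near the start were listed, and more of those farther out. Within 250 bp of a start, 3.08% of 389 member motifs were listed in the undifferentiated library and 10.0% in each of the untreated and treated libraries. The 4 paralogs held 5 of the 12 undifferentiated motifs listed there, and without them the shares were 1.87%, 8% and 8.53% of 375 motifs. From 250 to 500 bp, 4.20%, 7.56% and 11.8% of 238 motifs were listed, and the intervals overlap those next to the start in each library. All high CpG promoters gave 5.75%, 12.0% and 14.4% in that range, and the untreated member interval, 4.84 to 11.6%, lay below their share. From 500 to 1000 bp, 17.9%, 23.4% and 25.9% of 201 motifs were listed, and from 1000 to 2000 bp, 41.4%, 46.6% and 46.0% of 174. Within 250 bp, all high CpG promoters gave 2.40%, 7.67% and 8.69%, under the shares of all members but within their intervals. From 500 to 1000 bp they gave 18.4%, 23.4% and 28.4%, also within the member intervals. From 1000 to 2000 bp they gave 51.6%, 54.4% and 59.5%, above the members. At 2000 to 5000 bp the members were below high CpG genes too, with 51.4%, 54.2% and 55.3% against 67.8%, 69.1% and 70.7%. These are all 72 members, of which 39 have a high CpG promoter.

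**Figure D1:**
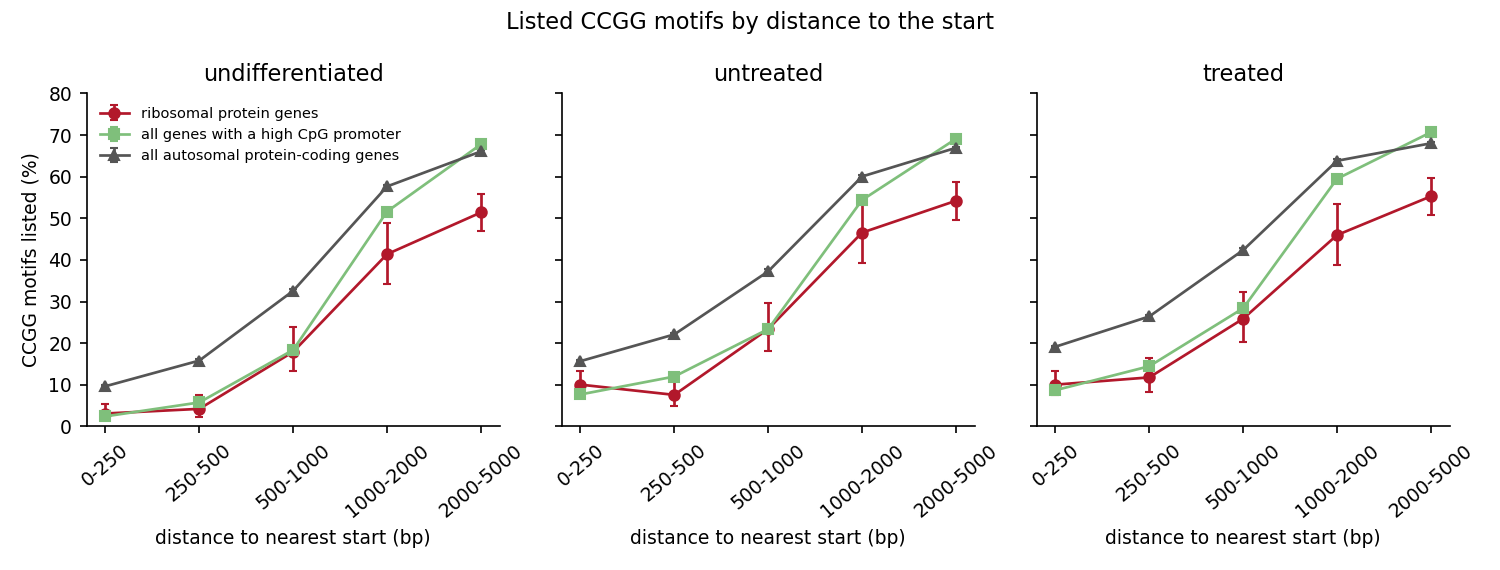
Share of CCGG motifs that are listed (%, vertical axis) by distance to the nearest start (bp, horizontal axis) in the undifferentiated, untreated and treated libraries, for the ribosomal protein genes (circles), all genes with a high CpG promoter (squares) and all autosomal protein-coding genes (triangles), with 95% Wilson intervals. Within 250 bp, 3.08%, 10.0% and 10.0% of the member motifs were listed, and from 500 bp on all curves climb with distance.

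The listed promoter sites of the members numbered 59 in undifferentiated cells, 107 in untreated cells and 121 in treated cells. Their median was 13 reads, 10 reads and 9 reads, and 20, 53 and 63 of them had fewer than 10 reads. Of 162 sites listed in any library, 42 were listed in all 3 libraries, 28 in both day 7 libraries only, 28 in the untreated library only, 47 in the treated library only and 4 in the undifferentiated library only. The same overlap is not given over all genes, so it is not compared with the background. Sites absent from the undifferentiated list had a median of 7 reads in each day 7 library, just above the smallest listed count. Some listed promoter sites lay inside another protein-coding gene, namely 10, 17 and 21 of them. Motifs less than a fragment apart can share reads, and 12 sites in each day 7 library lay within 16 bp of another, of which 8 in the untreated and 10 in the treated library had the same count as their neighbour. Reads summed by gene can therefore count the same fragment more than once.

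**Figure D2:**
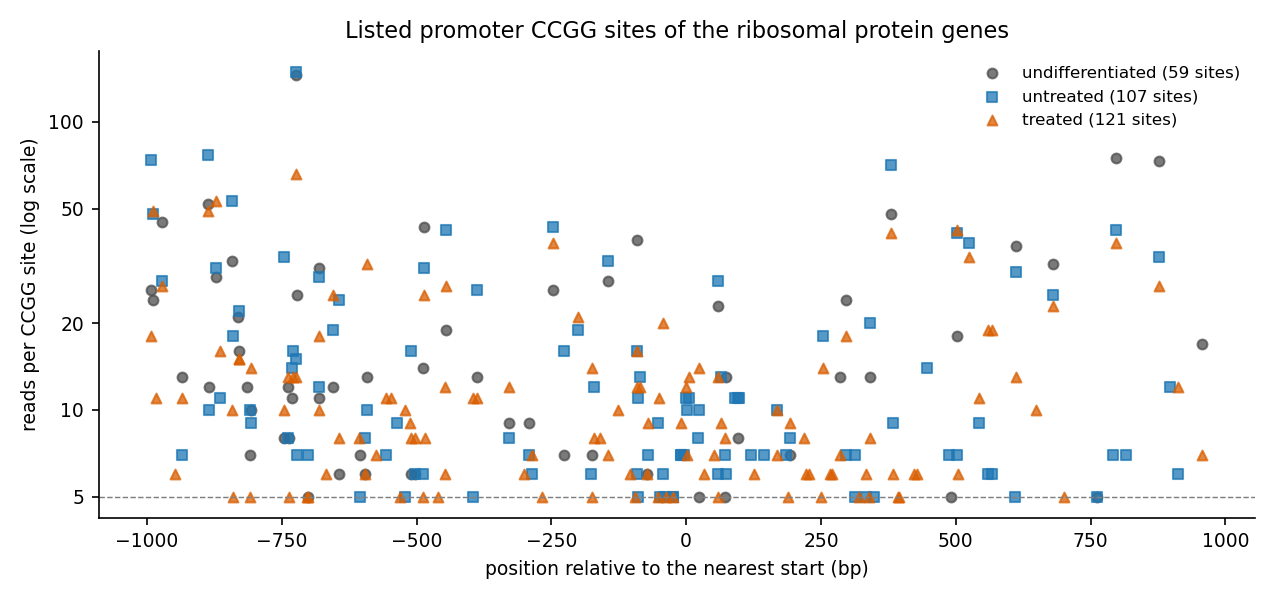
Reads per listed CCGG site (log scale, vertical axis) against position relative to the nearest start (bp, horizontal axis) for the promoters of the 72 members, with 1 point for each site and library and a dashed line at the smallest listed count of 5. The 59 undifferentiated sites lie mostly away from the start, with 12 of them within 250 bp, against 39 of 107 untreated and 39 of 121 treated sites.

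By gene, 29 members had a listed promoter site in all 3 libraries and 19 in none. A further 10 had one in both day 7 libraries only, 8 in the treated library only, 3 in the untreated library only, and 3 in the undifferentiated and treated libraries. No member had one in the undifferentiated library alone or in the undifferentiated and untreated libraries alone. These patterns are not given over all genes, so they are not compared with the background and are no result about the members. Of all genes, 59.4%, 70% and 71.8% had a listed promoter site in the undifferentiated, untreated and treated libraries.

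The 4 paralogs had the highest share of listed promoter motifs among the 3 kinds of member, in every library. Of their 32 promoter motifs, 14 were listed in undifferentiated cells (43.8%, 28.2 to 60.7%), 23 in untreated cells (71.9%, 54.6 to 84.4%) and 20 in treated cells (62.5%, 45.3 to 77.1%). Large subunit promoters gave 5.26%, 10.5% and 13.3% of 475 motifs, and small subunit promoters 5.92%, 9.66% and 11.2% of 321. The 4 genes are copies or relatives of core subunit genes, and 3 of them are used mainly in muscle or male germ cells.

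Rpl3l, a relative of Rpl3 made in heart and skeletal muscle, had 307 promoter reads in undifferentiated cells, 262 in untreated cells and 240 in treated cells, the most of any member in each library. Its 7, 9 and 9 listed sites lay downstream of its starts, and it is 1 of the 4 members with a low CpG promoter. Rpl10l, an intronless copy of the X-linked Rpl10 that is used in male germ cells, had 75, 97 and 69 promoter reads. Rpl39l, a male germ cell relative of the X-linked Rpl39, had 35, 92 and 55 reads at 2, 6 and 5 sites. In Rpl39l, 1 of the sites listed in both day 7 libraries only, with 11 and 12 reads, begins at the first base of the gene. Rps27l, a widely transcribed relative of Rps27 and a known target of p53, had 37, 27 and 21 reads, and its sites all lay upstream of the start.

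Among large subunit genes listed in all 3 libraries, Rpl10a, a protein of the stalk next to the exit site for transfer RNA, had 45 promoter reads in undifferentiated cells, 85 in untreated cells and 83 in treated cells. Rpl5, which carries a small ribosomal RNA into the large subunit and binds the p53 regulator MDM2, had 52, 51 and 50 reads. Rpl34 had 26, 89 and 18 reads, of which 26, 74 and 18 fell on a single site 992 bp upstream of the start. Rpl18 had 33, 91 and 48 reads, and every site listed in its promoter lay in the neighbouring gene Sphk2 or within 1 kb of a Sphk2 start. In all 4 genes the deepest site of each library lay upstream of a start.

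Among small subunit genes, Rps10, which is mutated in some families with Diamond-Blackfan anaemia, has several annotated starts and 24 promoter motifs, and it had 118, 117 and 67 reads in the undifferentiated, untreated and treated libraries. Its deepest site in each library lay 972 bp upstream of a start, with 45, 28 and 27 reads.

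A further 18 members, with fewer promoter reads when the 3 libraries are summed, had a listed promoter site in every library, namely Rpl12, Rpl13, Rpl19, Rpl21, Rpl22, Rpl23a, Rpl26, Rpl35, Rpl35a, Rpl36, Rpl37a, Rpl38, Rpl41, Rps14, Rps19, Rps20, Rps24 and Rps25. Their promoter reads ran from 5 to 42 in undifferentiated cells, 5 to 53 in untreated cells and 5 to 70 in treated cells.

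Of the 10 members listed in both day 7 libraries only, those with the most reads included Rps21, Rpl30, Rpl15 and Rpl14. Rps21 had 0 listed reads in undifferentiated cells, 36 in untreated cells and 17 in treated cells, and 3 of its 4 untreated sites lay upstream of the start by at most 86 bp. Rpl30, which takes part in a bridge between the subunits, had 0, 24 and 16 reads. Rpl15 had 0, 7 and 29 reads, and Rpl14 had 0, 12 and 15. Every listed promoter site of Rpl15 also lay within 1 kb of a start of the neighbouring gene Nkiras1. The libraries differ in which of these genes is highest, and the deepest single promoter site among these 4 genes had 16 reads.

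Among the 8 members listed in the treated library only, Rps18 had 12 promoter reads, Rps23 had 11, Rpl27 had 10, Rpl3 had 8 and Rpl24 had 6. The only Rps18 site lay inside the neighbouring gene Vps52 and within 1 kb of a Vps52 start. Rps23 sits in the decoding centre and Rpl3 reaches toward the peptidyl transferase centre. Rpl17, Rps15 and Rpl29 were listed in the undifferentiated and treated libraries, with 17 and 15, 21 and 6, and 5 and 12 reads. The 12 treated reads of Rpl29 are 6 at each of 2 motifs, 222 and 228 bp from a start, which can share reads. Rps27 with 7 reads and Rpl9 with 5 were among those listed in the untreated library only. The site of Rps27 also lay within 1 kb of a start of Rab13, and that of Rpl9 within 1 kb of a start of Lias. The promoter reads of the genes named here run from 5 to 21, and their differences between libraries were not tested.

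The 19 members with no listed promoter site in any library had 4 to 18 promoter motifs each. They comprised 9 large subunit genes (Rpl4, Rpl6, Rpl7, Rpl8, Rpl11, Rpl13a, Rpl23, Rpl27a and Rpl31) and 10 small subunit genes (among them Rps2, Rps3, Rps6, Rps12, Rps16, Rps26, Rps27a, Rps28 and Rps29). The most motifs with none listed were in Rpl7 and Rpl31, with 18 each, and in Rps6, with 17. Rpl31 lies near the exit of the tunnel through which the new protein leaves the ribosome, and Rps6 is phosphorylated in response to growth signals. The bodies and flanks of the 19 genes were not empty, since their summed reads ran from 54 to 692 in undifferentiated cells, 78 to 715 in untreated cells and 52 to 482 in treated cells.

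Promoter sequences were taken from the RefSeq promoter table (build GRCm38.p6), which runs from 250 bases before to 50 bases after a start and held 65 sequences for 53 of the 72 members. CCGG was present in 90.8% of the 65 and in 52.8% of all 32851 promoter sequences in the table. The letters CCGGAAG, searched on both strands and holding a CCGG motif, were present in 35.4% of the member sequences against 8.86% of all. AAGATGGC on either strand was present in 10.8% against 2.75%. TATAAA was present in none of the member sequences within the 50 bases before the start on the same strand, against 2.63% of all. A C at the start followed by at least 4 pyrimidines, the form of the start known from genes under growth control of translation, was present in 12 member sequences (18.5%) against 2.51%. Apart from CCGG, most member sequences did not hold these letters as searched, and no test of enrichment was run. The C was asked for at the exact RefSeq start, so a run of pyrimidines beginning at another base was not counted. The share of members with such a start may therefore be higher.

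CCGG motifs within CCGGAAG were listed about as often as the others in these promoters. In the 1 kb promoters of the members, 3 of 59 such motifs were listed in undifferentiated cells, 10 in untreated cells and 8 in treated cells (5.08%, 16.9% and 13.6%). Of the other 769 motifs, 55, 94 and 111 were listed (7.15%, 12.2% and 14.4%). Over all genes the shares were 21.4%, 26.3% and 29.3% of 6771 motifs within CCGGAAG and 16.7%, 22.5% and 26.6% of the other 163729.

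Promoters of 4 members are printed to show where the motifs stand, 2 with listed sites in all 3 libraries (Rpl10l and Rpl10a) and 2 with many motifs and none listed (Rpl31 and Rps6). Each is given 5′ to 3′ on the strand of the gene in GRCm38.p6, with every CCGG in capitals. Rpl10l lies at chr12:66284352-66284651 on the minus strand, and its only CCGG in this window, at base 156, had 39 reads in the undifferentiated and 16 in each of the untreated and treated libraries. Rpl10a lies at chr17:28328221-28328520 on the plus strand. Of its 5 CCGG motifs, the 1 farthest from the start, at base 5, had 26, 43 and 38 reads, the motif at base 91 had 8 reads in the treated library only, and the 3 nearer the start were not listed.
Rpl10l: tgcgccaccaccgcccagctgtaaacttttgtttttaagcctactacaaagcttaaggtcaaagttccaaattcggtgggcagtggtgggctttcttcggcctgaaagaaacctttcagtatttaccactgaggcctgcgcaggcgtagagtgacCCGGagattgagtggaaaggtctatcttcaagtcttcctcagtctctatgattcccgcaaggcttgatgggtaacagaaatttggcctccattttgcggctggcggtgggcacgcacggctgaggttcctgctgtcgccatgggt
Rpl10a: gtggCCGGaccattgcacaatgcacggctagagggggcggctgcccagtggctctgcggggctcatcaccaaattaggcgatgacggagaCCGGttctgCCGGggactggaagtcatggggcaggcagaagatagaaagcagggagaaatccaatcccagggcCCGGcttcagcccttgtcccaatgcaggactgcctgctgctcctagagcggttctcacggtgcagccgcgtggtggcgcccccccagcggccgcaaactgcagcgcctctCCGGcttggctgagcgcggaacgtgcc

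Rpl31 lies at chr1:39367601-39367900 on the plus strand and Rps6 at chr4:86857318-86857617 on the minus strand, and each holds 4 CCGG motifs in this window, in capitals, none of them listed in any of the 3 libraries. In both genes 1 of the 4 is followed by aag, which makes the CCGGAAG letters counted above. The RefSeq start of Rpl31 is 9 bases from the GENCODE start and that of Rps6 is 45 bases from it.
Rpl31: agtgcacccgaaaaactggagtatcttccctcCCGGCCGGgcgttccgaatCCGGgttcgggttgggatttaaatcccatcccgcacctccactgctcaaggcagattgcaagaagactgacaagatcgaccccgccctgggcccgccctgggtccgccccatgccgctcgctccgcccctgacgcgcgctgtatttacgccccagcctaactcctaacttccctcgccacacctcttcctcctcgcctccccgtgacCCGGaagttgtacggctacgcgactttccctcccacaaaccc
Rps6: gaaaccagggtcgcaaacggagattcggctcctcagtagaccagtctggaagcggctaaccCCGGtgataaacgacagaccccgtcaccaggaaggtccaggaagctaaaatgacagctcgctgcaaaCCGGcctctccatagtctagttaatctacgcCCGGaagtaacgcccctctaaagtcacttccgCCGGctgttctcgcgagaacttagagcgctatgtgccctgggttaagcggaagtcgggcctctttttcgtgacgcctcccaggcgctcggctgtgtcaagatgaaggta

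Bodies and flanks gave higher shares than promoters, in an order of the libraries that depends on the read cutoff. Of 1852 member motifs from 5 kb before to 5 kb after the genes, 557 were listed in undifferentiated cells (30.1%, 28.0 to 32.2%), 640 in untreated cells (34.6%, 32.4 to 36.8%) and 674 in treated cells (36.4%, 34.2 to 38.6%), but with at least 10 reads the shares were 23.8%, 26.3% and 23.6%, the treated library being lowest. Over all genes the shares were 57.3%, 58.7% and 59.5%. Member genes are short, so promoters make up much of their sequence. With promoters taken out, 47.9%, 51.7% and 53.4% of 1041 member motifs were listed, against 64.9%, 65.5% and 65.8% for all genes.

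The gap between members and other genes was widest in exons. Beyond the promoters, 32.9%, 36.7% and 34.2% of the 79 member exon motifs were listed, against 74.1%, 77.4% and 77.2% of the exon motifs of all genes. In introns, 60.8%, 63.6% and 62.9% of 143 member motifs were listed, against 66.2%, 66.2% and 66.1%. In flanks, 47.0%, 50.9% and 53.5% of 823 were listed, against 56.1%, 57.8% and 59.5%. In introns the members thus stood within counting error of other genes, while in exons their share was under the share of other genes in all 3 libraries.

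Large and small subunit genes differed in exons, by share, in the same direction in each library. For large subunit genes, 17.4%, 19.6% and 21.7% of 46 exon motifs beyond the promoter were listed, and for small subunit genes 55.6%, 59.3% and 51.9% of 27. In flanks the shares were 45.0%, 48.7% and 51.9% of 538 against 52.4%, 56.2% and 58.1% of 267. With these numbers of motifs the intervals are wide, and the difference between the subunits was not tested.

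Exon sequence of these genes recurs in their processed pseudogenes, and only reads that mapped to 1 place with at most 1 mismatch were kept by the authors. The annotation held 238 processed pseudogenes named after 50 of the 72 members. For each motif, the copies of the surrounding 32 bases in the genome were counted. Of the 331 member exon motifs, 220 lay in a window found once and 111 in a window found more than once.

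Listed exon motifs away from the start lay mostly in windows with a single copy. Beyond 1 kb of a start, 26, 27 and 25 of 36 exon motifs with a single copy were listed in the undifferentiated, untreated and treated libraries (72.2%, 75% and 69.4%), close to the exon shares of all genes. Of 43 exon motifs with several copies, 0, 2 and 2 were listed. The pseudogenes showed the same split, with 78.9%, 75.8% and 70.5% of 95 single-copy motifs listed and 3, 8 and 17 of 169 motifs with several copies. Few motifs with several copies were thus listed in either kind of sequence, and the reason was not tested. Some single-copy windows have another copy within 1 mismatch. Among motifs without one, 77.4%, 80.6% and 77.4% of 31 exon motifs beyond 1 kb of a start were listed. In the pseudogenes, 89.1%, 80.4% and 78.3% of 46 such motifs were listed.

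**Figure D3:**
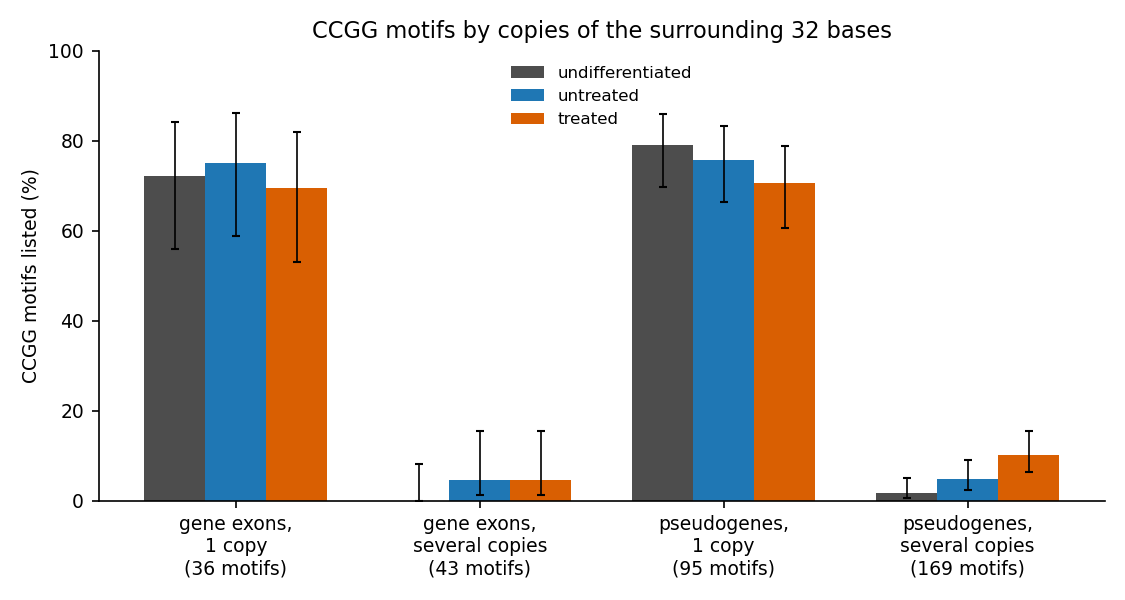
Share of CCGG motifs that are listed (%, vertical axis) by whether the surrounding 32 bases occur once or several times in the genome, for member exons beyond 1 kb of a start and for processed pseudogenes of the members, with 1 bar for each library and 95% Wilson intervals. Single-copy motifs were listed at 69.4 to 78.9% in both kinds of sequence and motifs with several copies at 0 to 10.1%.

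Near the start the picture was different, because single-copy motifs there were mostly unlisted too. Within 250 bp of a start, 6, 24 and 16 of 149 single-copy exon motifs were listed, which is 4.03%, 16.1% and 10.7%. Low listing near the start was thus seen in windows without an exact copy elsewhere.

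Pairs of a gene window and a pseudogene window that differ by 1 base show how the same letters fared in both places. Where the pseudogene window was found once in the genome there were 29 such pairs, from 28 pseudogenes and 17 members. The pseudogene motif was listed in 20 of the 29 pairs in undifferentiated cells, 22 in untreated cells and 18 in treated cells. The gene motif was listed in 2, 3 and 3 pairs, and only 3 of the gene windows were single copy, since some had up to 33 copies. A listed pseudogene motif had a median of 19, 15.5 and 17.5 reads.

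The pairs printed here come from coding exons and are printed 5′ to 3′ on the strand of the gene, in GRCm38, with the central CCGG in capitals. A difference such as C21A gives the base of the gene, its position from the 5′ end of the 32 bases and the base of the pseudogene. In Rps15, a protein near the decoding centre, the gene window (chr10:80294015-80294046) has 2 copies and had 0, 5 and 0 reads, while Rps15-ps2 (chr6:58017878-58017909) differs by C21A, is found once and had 53, 77 and 45 reads. The Rps15 window holds 2 CCGG motifs and the Rps15-ps2 window 1, and the reads given are those of the central motif.
Rps15: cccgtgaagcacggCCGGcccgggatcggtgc
Rps15-ps2: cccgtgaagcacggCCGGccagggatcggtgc

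In Rpl36 the gene window (chr17:56613931-56613962) has 6 copies and had no listed reads, while Rpl36-ps12 (chr6:108140334-108140365) differs by G29A and had 52 reads in undifferentiated cells, 60 in untreated cells and 38 in treated cells. Rps2, which lies at the channel where messenger RNA enters, has a window (chr17:24721229-24721260) with 30 copies and no listed reads, and Rps2-ps4 (chr11:53646136-53646167) differs by C4A and had 49, 49 and 22 reads. In these pairs a single base made the pseudogene window unique, and the CCGG in capitals is the same in both.
Rpl36: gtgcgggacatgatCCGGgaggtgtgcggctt
Rpl36-ps12: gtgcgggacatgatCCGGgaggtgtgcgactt
Rps2: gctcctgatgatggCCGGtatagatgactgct
Rps2-ps4: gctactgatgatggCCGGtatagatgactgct

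In 4 pairs that differ by 1 to 3 bases, both windows are single copy. Both motifs were listed in 2, 1 and 1 of these pairs in the undifferentiated, untreated and treated libraries, and neither in 0, 2 and 3. In Rps26, which lies where messenger RNA leaves the small subunit, the gene window (chr10:128625229-128625260) had 0, 6 and 7 reads and Rps26-ps1 (chr8:107439273-107439304), which differs by G12A, had 5, 6 and 9. The capitals mark the CCGG in each line, which in the gene lies in a coding exon away from the start.
Rps26: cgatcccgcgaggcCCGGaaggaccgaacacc
Rps26-ps1: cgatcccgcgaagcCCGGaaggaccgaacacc

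Read numbers were then compared with the undifferentiated library at sites listed in both libraries of a pair. At 507 shared member sites the median log2 ratio of untreated to undifferentiated counts was 0.36, against 0.25 over all autosomal CCGG sites, and it turned to -0.18 by RPM (the deposited counts scaled to the mapped reads of each library). At 495 shared sites the median for treated to undifferentiated was -0.26, against -0.23 over all sites. Relative to all sites, the member medians were 0.10 and -0.04. At these shared sites the member median of the treated library thus moved by nearly the same amount as that of all sites. Summed by gene, as given below, the treated member median was instead 0.16 relative to the median gene. The direction in the untreated library depended on the scaling.

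Summed over body and flanks, the reads of a member ran from 21 to 782 in undifferentiated cells, 32 to 846 in untreated cells and 25 to 664 in treated cells. Genes were compared where the 2 libraries together held at least 50 reads, which all 72 members did for the untreated and 71 for the treated comparison. The median gene of all autosomal protein-coding genes shifted by 0.20 (log2) in the untreated and -0.30 in the treated library by counts, and by -0.34 and -0.70 by RPM. Changes are therefore also given relative to this median gene.

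By counts, the median log2 ratio of the members was 0.34 in the untreated library, with 62 genes higher and 10 lower (86.1% higher, against 78.9% of all genes), but it was -0.19 by RPM, with 22 higher and 50 lower (30.6%, against 11.1%), and 0.14 relative to the median gene, with 50 higher and 22 lower. In the treated library it was -0.14 by counts, with 28 higher and 43 lower (39.4% higher, against 17.2% of all genes), and -0.54 by RPM, with 9 higher and 62 lower (12.7%, against 5.16%), but 0.16 relative to the median gene, with 44 higher and 27 lower. Mitochondrial ribosomal protein genes stood at 0.03 and 0.02 relative to the median gene, translation factors at -0.01 and -0.01, the other cytosolic ribosome genes at 0.06 and -0.03, and classic housekeeping genes at 0.03 and 0.08, while by RPM all 4 lists were below 0 in both libraries. Both comparisons share the undifferentiated library.

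By counts and relative to the median gene, few members changed by at least 2 fold. In the untreated library, 6 of 72 members (8.33%) were at least 2 fold up by counts, against 2% of all 19503 genes compared, and 0 were at least 2 fold down, against 0.887%. Relative to the median gene 3 members were up (4.17%, against 1.12%), and by RPM 1 was up (1.39%, against 0.482%) and 2 were down (2.78%, against 3.13%). In the treated library, 2 of 71 members were at least 2 fold up by counts, against 1.36% of all 19460 genes compared, and 6 were at least 2 fold down (8.45%), against 2.97%. Relative to the median gene 6 were up (8.45%, against 2.53%) and 2 down (2.82%, against 1.26%), and by RPM 0 were up and 15 down (21.1%, against 14.8%), so the direction of these calls followed the scaling.

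**Figure D4:**
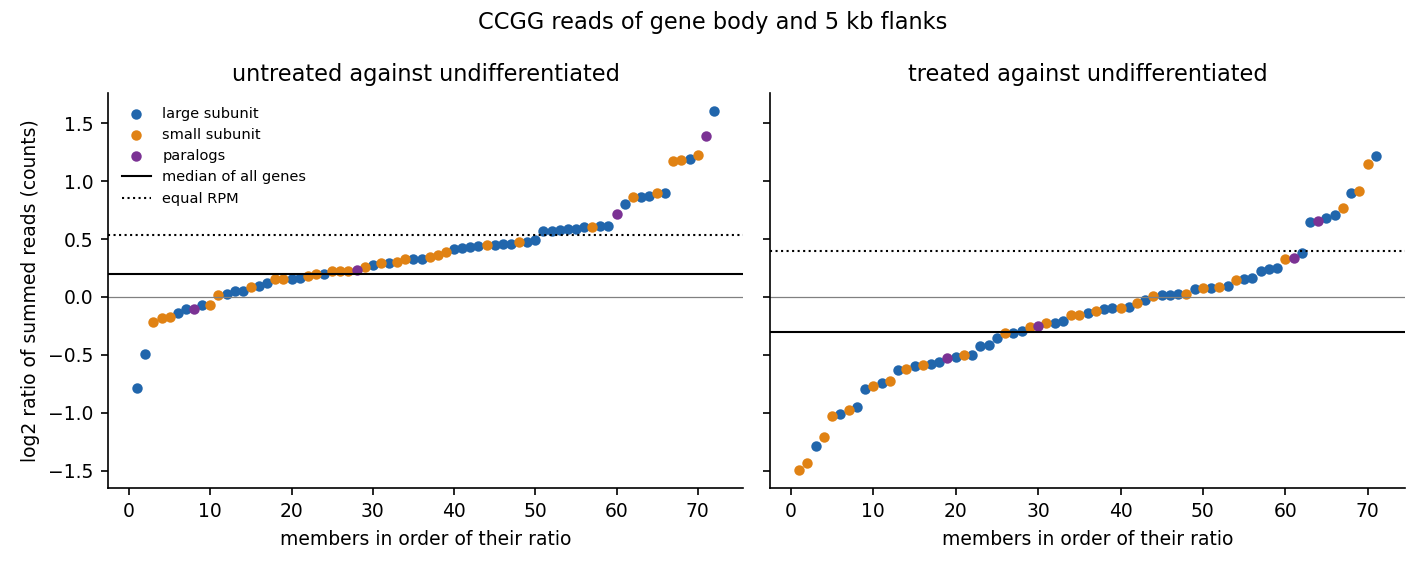
Log2 ratio of summed CCGG reads (counts, vertical axis) of body and 5 kb flanks for the members in order of their ratio (horizontal axis), untreated (left) and treated (right) against undifferentiated, with 1 point for each gene. The solid line is the median of all genes (0.20 and -0.30) and the dotted line is where RPM is equal, so that 62 of 72 members lie above 0 by counts in the untreated library but 22 lie above the dotted line.

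The medians of the 2 subunits had the same sign under each scaling, and their difference was not tested. By counts, the untreated median was 0.43 for large and 0.28 for small subunit genes. In the untreated library the median log2 ratio relative to the median gene was 0.24 for the 40 large subunit genes and 0.08 for the 28 small subunit genes, although by RPM both were below 0, at -0.10 and -0.26. In the treated library the values were 0.20 and 0.15 relative to the median gene, while by counts they were -0.10 and -0.15 and by RPM -0.50 and -0.55.

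The members with the largest untreated ratios included Rpl30, Rpl39l, Rpl15 and Rps27a, and each of these was above 0 by counts, by RPM and relative to the median gene. Rpl30 had 52 reads in undifferentiated cells, 158 in untreated cells and 97 in treated cells, which is a log2 ratio of 1.41 relative to the median gene in the untreated and 1.20 in the treated library. It had the largest untreated ratio of the 72 members. Rpl15 had 49, 112 and 114 reads, or 1.0 and 1.52. Rps27a, which is made as a fusion with ubiquitin, had 54, 123 and 120 reads, or 0.99 and 1.45, with no listed promoter site. Rps21 had 77, 174 and 145 reads, or 0.98 and 1.21, and with Rpl15, Rps27a and Rpl30 it was among the 5 largest treated ratios.

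At the other end, Rpl27, Rpl3, Rps29, Rps12 and Rps13 had the smallest untreated ratios, all below 0 by counts. The other scalings lower every untreated ratio by a fixed amount, so these ratios were below 0 under each scaling. Rpl27 had 240 reads in undifferentiated cells, 139 in untreated cells and 119 in treated cells, or -0.98 and -0.71 relative to the median gene. Rpl3 had 493, 350 and 318 reads, or -0.69 and -0.33. Rps29 had 247, 213 and 121 reads, or -0.41 and -0.73, and Rps13 had 71, 63 and 50, or -0.37 and -0.21.

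The smallest treated ratios belonged to Rps12, Rps6, Rpl4, Rps28 and Rps29, again below 0 under each scaling. Rps12 had 155, 137 and 55 reads, or -0.37 in the untreated and -1.19 in the treated library relative to the median gene. Rps6 had 189, 221 and 70 reads, or 0.03 and -1.13, and Rpl4, which lines the exit tunnel for new protein, had 127, 146 and 52, or 0.00 and -0.99. Rps28 had 246, 274 and 106 reads, or -0.04 and -0.91. These 4 genes had reads in the untreated library near those of the undifferentiated library and were at least 2 fold lower by counts in the treated library, and none of the 4 had a listed promoter site.

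Single deep sites made up part of such sums. The deepest site around a member was in an intron of Rpl11 (chr4:136038342-136038345), with 161, 142 and 69 reads in the undifferentiated, untreated and treated libraries. Among the 5 deepest were also 3 sites inside a neighbouring gene. A site 3786 bp upstream of Rps2, within the gene Rnf151, had 133, 129 and 74 reads, a site 2427 bp upstream of Rpl32, within Efcab12, had 93, 129 and 75, and a site downstream of Rpl3l, within Msrb1, had 142, 116 and 39.

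Since the study normalises with exons of housekeeping genes, the mean change of exonic reads was computed for the members, here from CCGG sites only. Summed exonic CCGG reads averaged 14.7 reads per member in undifferentiated cells, 19.9 in untreated cells and 12.5 in treated cells, against 139, 161 and 113 over all genes. The mean change was 5.24 reads per gene in the untreated library by counts but -0.0178 by RPM, and it was -2.18 in the treated library by counts but 0.347 after thinning to equal CCGG totals. Over all genes the mean changes by counts were 22.1 and -25.6 reads, and over the 12 classic housekeeping genes 29.3 and -21.8. The median change of the members was 0 in both comparisons, because 38 and 39 of them had no listed exonic read in either library compared, which leaves 34 and 33 that had some.

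A few genes carried the exonic baseline. Rpl3l alone held 267, 243 and 204 exonic reads, or 25.3%, 17% and 22.7% of the exonic reads of all members. Rps24 had 139, 93 and 60, Rps15a had 85, 165 and 70, and Rpl22 had 71, 68 and 48. Of the exonic reads at reference motifs, 1051, 1421 and 887 in all, those in single-copy windows made up 1051, 1410 and 839. As a housekeeping baseline in these files the members thus rest on few exonic reads, nearly all of them in windows found once in the genome.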

How the data were processed

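Each of the 3 libraries is a table of sites. Per the labels, reads were quality checked with FastQC 0.11.3 and mapped to GRCm38 with Bowtie2 2.3.3. The deposited values are the count of uniquely mapped reads per site and the RPM that the authors computed from it, and sites under 5 reads are absent. CCGG sites on autosomes were used. Members, the paralogs and the related lists were picked by gene name in GENCODE M21, and they were chosen with earlier results of these data known. Genes named in the text were drawn from the paralogs, members listed in every library or in none, and those with the most promoter reads per pattern. Others were the 3 with the most unlisted motifs, the 5 largest and smallest ratios and the 5 deepest sites. The rest came from the members with the most exonic reads and from the pairs of gene and pseudogene windows. CCGG motifs and copies of the 32 bases around them were counted in GRCm38. Ratios used genes with at least 50 reads in both libraries together. The code was tested on simulated data. Tables were made with pandas 2.3.3 and NumPy 2.4.6 under Python 3.11.15, intervals of medians with SciPy 1.17.1, and plots with Matplotlib 3.10.9. Read cutoffs, promoter widths, thinning (seed 7), RPM and other alternatives were tried. The share without sites in or near another gene was added after seeing the data.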

Additional observations from a re-analysis of the deposited data

Results flagged for a closer look

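CCAGG sites were not used in the comparisons. In the treated list, 24 of the 72 members had a CCAGG site within 1 kb of a start, against 9 in the undifferentiated and 9 in the untreated list, a signal outside the main measurement. The other 2 lists are no separate measurements of this motif, since 264626 of the 264694 CCAGG sites listed in both hold the same count. Over all genes the shares were 60.4% in the treated and 29.3% in each of the undifferentiated and untreated lists. CCTGG sites gave 7 members (9.72%) in each of the 3 lists, against 29.0% of all genes in each. All 266012 CCTGG sites listed in both day 7 lists hold the same count. The cause of the equal counts and of the CCAGG difference was not tested.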

How the results depend on the processing

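No paired analysis was possible because each group has 1 library. Of 107 values under the alternatives, 44 stayed within the counting interval of the main value, 60 moved and 3 changed sign. In each set of values the order is undifferentiated, untreated and treated unless said otherwise. The cause was not tested for any change given here.

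The share of members with a listed promoter site was 30.6%, 37.5% and 37.5% with at least 10 reads, 18.1%, 41.7% and 48.6% with 500 bp on each side, and 90.3%, 91.7% and 93.1% with 3 kb. Over all genes it was 48.4%, 55.1% and 56.0% with at least 10 reads, 39.0%, 54.4% and 57.6% with 500 bp, and 86.8%, 88.3% and 88.7% with 3 kb, where the members were no longer below. Without sites in or near another protein-coding gene, an alternative chosen after seeing the data, the share of members was 36.1%, 44.4% and 56.9%. The share of all genes is not given for this alternative, so it is not compared with the background.

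The share of listed promoter motifs was 11.7% in the treated library with at least 6 reads and 4.59%, 6.28% and 6.88% with at least 10. In the untreated library it was 9.30% after thinning and 10.2% without paralogs. It was 3.51%, 9.09% and 10.7% with 500 bp, 18.3%, 23.5% and 23.5% with 3 kb, and 11.8%, 17.3% and 20.8% upstream only. Of body and flank motifs, 32.9% were listed in the treated library with at least 6 reads, 23.8%, 26.3% and 23.6% with at least 10, 30.2% in the untreated library after thinning, 16.2%, 21.0% and 21.2% without flanks, and 33.1%, 37.9% and 39.3% of single-copy motifs.

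The median log2 ratio at shared sites (untreated to undifferentiated, treated to undifferentiated, treated to untreated) was -0.18, -0.66 and -0.38 by RPM, the first with its sign changed, and 0.10, -0.036 and -0.046 relative to all sites. As a median over genes the second was -0.14. The mean exonic change (untreated, treated) was -0.0178 and -0.102 by RPM and 1.61 and 0.347 after thinning, where the RPM value for untreated and the thinned value for treated changed sign. It was 1.83 and -4.33 beyond 1 kb of a start, and its median over genes was 0 and 0.

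Of single-copy motifs, 16.8%, 28.2% and 24.1% were listed in member exons and 78.9%, 75.8% and 70.5% in pseudogenes. Of all motifs the main shares were 11.2%, 19.3% and 18.1% in exons and 29.5%, 30.3% and 31.8% in pseudogenes. With at least 10 reads asked for, 12.4% (untreated) and 9.06% (treated) of all exon motifs were listed, and 23.5%, 20.5% and 19.7% of all pseudogene motifs. Of the listed promoter sites of the members, 20, 53 and 63 hold fewer than 10 reads.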
